A study of Rattus norvegicus with 15 samples.

Results

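The posterior cerebral artery of rats 3 d after sham surgery was compared with the same artery 24 h after sham surgery. The comparison asks how the vessel wall differs between these times after an operation that left the vessels open. The arrays were chosen by the source label of each sample, 3 at 3 d and 3 at 24 h, and made up 6 of the 15 arrays of the series. Replicate numbers were given here, in the order of the numbers in the sample titles within each group. They do not link arrays across groups. Of the probe sets that are not controls, 15737 had enough signal to be tested, and 10366 genes were represented by their brightest probe set. The sham operation exposed the vertebral arteries of both sides and the common carotid artery of the left side under isoflurane, with buprenorphine against pain, and closed no vessel. The other arrays came from animals 3 d and 24 h after 3-vessel occlusion (3VO), in which these vertebral arteries were coagulated and that carotid artery was tied, and from intact animals taken at time 0. All rats were Sprague Dawley animals of 7 weeks. Each array held pooled posterior cerebral artery RNA of 8 rats, and the source label of every array, intact ones included, gives the artery as ipsilateral. The vessels had been filled with latex under papaverine, which dilates them, so that they could be dissected. The labels do not state how far the 3 pools of a group came from separate operations, so p-values measure the spread between these arrays. With pooled whole arteries, fewer cells of a type and less RNA per cell cannot be told apart.

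The posterior cerebral artery supplies the back of the brain and receives blood through the vertebral and basilar arteries and through the circle of Willis. Its wall is made of contractile smooth muscle around an endothelial lining, and its outer side lies in the leptomeninges, close to brain tissue and choroid plexus. Surgery of any kind sets off an acute phase reaction, glucocorticoid release and leukocyte activation, and sham-operated animals serve to separate these from the effects of closing a vessel.

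Median signals were 2785 to 2932 on the 3 d sham arrays and 2553 to 2794 on the 24 h sham arrays, on the linear scale of the deposited values. The 3' to 5' signal ratio of the GAPDH control, a measure of RNA and label length, was 1.225 to 1.415 at 3 d and 1.033 to 1.137 at 24 h, and these ranges did not overlap. For the beta-actin control the ratio was 1.877 to 2.331 at 3 d and 1.676 to 1.968 at 24 h. For hexokinase it was 1.587 to 2.403 at 3 d and 1.299 to 1.908 at 24 h, so both of these controls overlapped. The part of these ratios in the results below was not tested. Across the tested probe sets, log2 signals correlated with a Pearson r of 0.909 to 0.935 between pairs of 3 d arrays, 0.94 to 0.943 between pairs of 24 h arrays and 0.911 to 0.943 between the times. Arrays from different times were thus about as alike as the 3 d arrays were among themselves. The smooth muscle genes Acta2 and Myh11 gave signals of at least 34190 and 70520 on the 6 arrays, so markers of the labelled tissue were present, as were markers of leptomeninges and brain.

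A label conflict and an array that stood apart both touch the 3 d group. The treatment text of replicate 1 at 3 d describes the occlusion, although its source, title, description and extraction text say sham. It was kept as sham here, and values without it are given beside several lists and genes. Replicate 3 at 3 d had higher signals of several choroid plexus genes than the other 5 sham arrays, followed by replicate 3 at 24 h. Ttr and Enpp2, picked for this after their values were seen, show both. Transthyretin (Ttr), the main secreted protein of the choroid plexus, had signals of 15720, 12090 and 261000 at 3 d, against 45160, 25560 and 122000 at 24 h. Enpp2, which makes lysophosphatidic acid and is abundant in the same epithelium, had 11920, 13740 and 166700 at 3 d and 12500, 8595 and 21780 at 24 h. The sum over the 16 measured choroid plexus markers was 149709, 123203 and 700366 at 3 d and 170427, 122039 and 285253 at 24 h. It was also high on an intact array, at 727331, against 110492 and 358860 on the other intact arrays.

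No probe set differed between the 3 d and the 24 h sham arteries at an adjusted p under 0.05 (limma across all 15 arrays, Benjamini-Hochberg over the probe sets tested). The count was 0 of 15737, or 0%, and the smallest adjusted p was 0.757. At an unadjusted p under 0.05 there were 889 probe sets (5.65%), where 5 percent of the tested probe sets is 787. Of these, 595 (3.78%) were higher and 294 (1.87%) lower at 3 d. The 3 d arrays lay wholly above or below the 24 h arrays for 1775 probe sets (11.3%), 1059 (6.73%) above and 716 (4.55%) below. The lean toward higher values depended on the scaling: 66.9% of the probe sets with an unadjusted p under 0.05 were higher at 3 d with the deposited scaling, 49.9% after quantile normalization and 45.7% after centring each array on its median. Without replicate 1 at 3 d 0 probe sets passed and 1142 had an unadjusted p under 0.05, and without replicate 3 at 3 d 0 passed and 692 had one. Without replicate 2 at 3 d 1 probe set passed, that of C19h1orf131, named here because it was the only one in any setting tried. Its signals were 271, 1644 and 235 at 3 d and 2078, 1585 and 1713 at 24 h, so replicate 2 lay among the 24 h arrays, and its adjusted p was 0.867 with all arrays and 0.043 without that array.

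The precision sets what the absence of a call can mean. The median standard error (SE) of a log2 difference was 0.27 and the median 95% interval reached 0.58 to either side. For 9495 probe sets, or 60.3%, the 95% interval lay wholly between -1 and 1, that is, within a 2-fold difference either way. Among the 11644 probe sets with a geometric mean signal of 1000 or more, this held for 9337, or 80.2%. For most of these brighter probe sets a difference larger than 2-fold was therefore outside the interval, and for the dimmer ones it more often was not.

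The 12 higher and 12 lower genes with the smallest unadjusted p, among those with no overlap between the times and a mean signal of at least 1000 in the higher group, are described next as measured values. They were picked for small p-values, their adjusted p ranged from 0.757 to 0.867, and none passed the test. At the head of the higher genes stood Vdr, the nuclear receptor for vitamin D. Its signal was 2032, 1753 and 2074 at 3 d, against 561, 619 and 1049 at 24 h and 913, 791 and 1131 in intact arteries. All 3 arrays at 3 d lay above every 24 h and intact array. The log2 difference between 3 d and 24 h was 1.43 ± 0.29 (SE, n = 3 each), with a limma adjusted p of 0.757, and after 3VO the difference between the times was 1.19 on the same scale. Thus Vdr was higher on the 3 d arrays in both surgeries and passed the test in neither.

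Acbd3, a Golgi protein that recruits a lipid kinase, had signals of 4700, 4070 and 4484 at 3 d and 2146, 2448 and 2626 at 24 h, a log2 difference of 0.87 ± 0.21 (SE, n = 3 each). The groups were far apart relative to their spread on this probe set. A second Acbd3 probe set gave -0.28, with 3516, 3968 and 4386 at 3 d and 5638, 4476 and 4364 at 24 h, so the gene has no single direction on this array. Gulp1, an adaptor for the engulfment of dying cells, had 7240, 6565 and 8730 at 3 d and 4449, 4201 and 5158 at 24 h, a log2 difference of 0.70. Medag, named for its part in adipocyte development, had 5235, 6992 and 5708 at 3 d and 3928, 3461 and 3993 at 24 h, a difference of 0.65. After 3VO, Gulp1 differed by 0.56 and Medag by 0.97 between the same times. Zdhhc8, an enzyme that attaches palmitate to proteins, had 6225, 7878 and 5760 at 3 d and 2406, 2937 and 4928 at 24 h after sham surgery. Cptp, a carrier of ceramide-1-phosphate, differed by 0.57.

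Several of the higher genes were dim at 24 h. Signals under 100 made up 1.36% of values on replicate 3 at 3 d and 4.12% and 3.23% on replicates 1 and 2. At 24 h they made up 3.71% to 5.27%. The part of this in the differences of dim genes was not tested. Calca encodes calcitonin and calcitonin gene-related peptide, a vasodilator that perivascular sensory nerves release. One of its probe sets had signals of 487, 4975 and 479 at 3 d, against 122, 44 and 63 at 24 h, a log2 difference of 3.63. The 3 d values lay above all 24 h values, but replicate 2 alone was far above the other 2 and set the mean of 1980 ± 2594 (SD, n = 3). The other Calca probe sets differed from it and from each other. One had 276, 2470 and 4536 at 3 d and 1848, 1671 and 1607 at 24 h, a difference of -0.21, and the other was dim throughout, with 625, 313 and 297 at 3 d and 60, 82 and 142 at 24 h, a difference of 1.94. The sign of the Calca difference therefore depends on the probe set.

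Cyp7a1, the rate-limiting enzyme of bile acid synthesis in liver, had 2128, 1640 and 2656 at 3 d and 246, 857 and 1038 at 24 h, a difference of 1.77 on the log2 scale. Akr1d1, a steroid reductase of the same pathway, had 976, 1293 and 1664 at 3 d and 610, 139 and 158 at 24 h, a difference of 2.34. Intact arteries had 1102 to 1615 for Cyp7a1 and 485 to 680 for Akr1d1, and the 3 d arrays lay above these ranges for both genes. Palb2, the partner of the DNA repair protein Brca2, averaged 1128 ± 287.6 at 3 d and 366 ± 222.6 at 24 h (SD, n = 3 each), a difference of 1.71. RT1-N2, a nonclassical class I histocompatibility gene, had 371, 674 and 2224 at 3 d and 102, 74 and 163 at 24 h. It belongs to a multigene family whose transcripts a probe set may not separate, so its difference of 2.77 is uncertain.

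**Figure D1:**
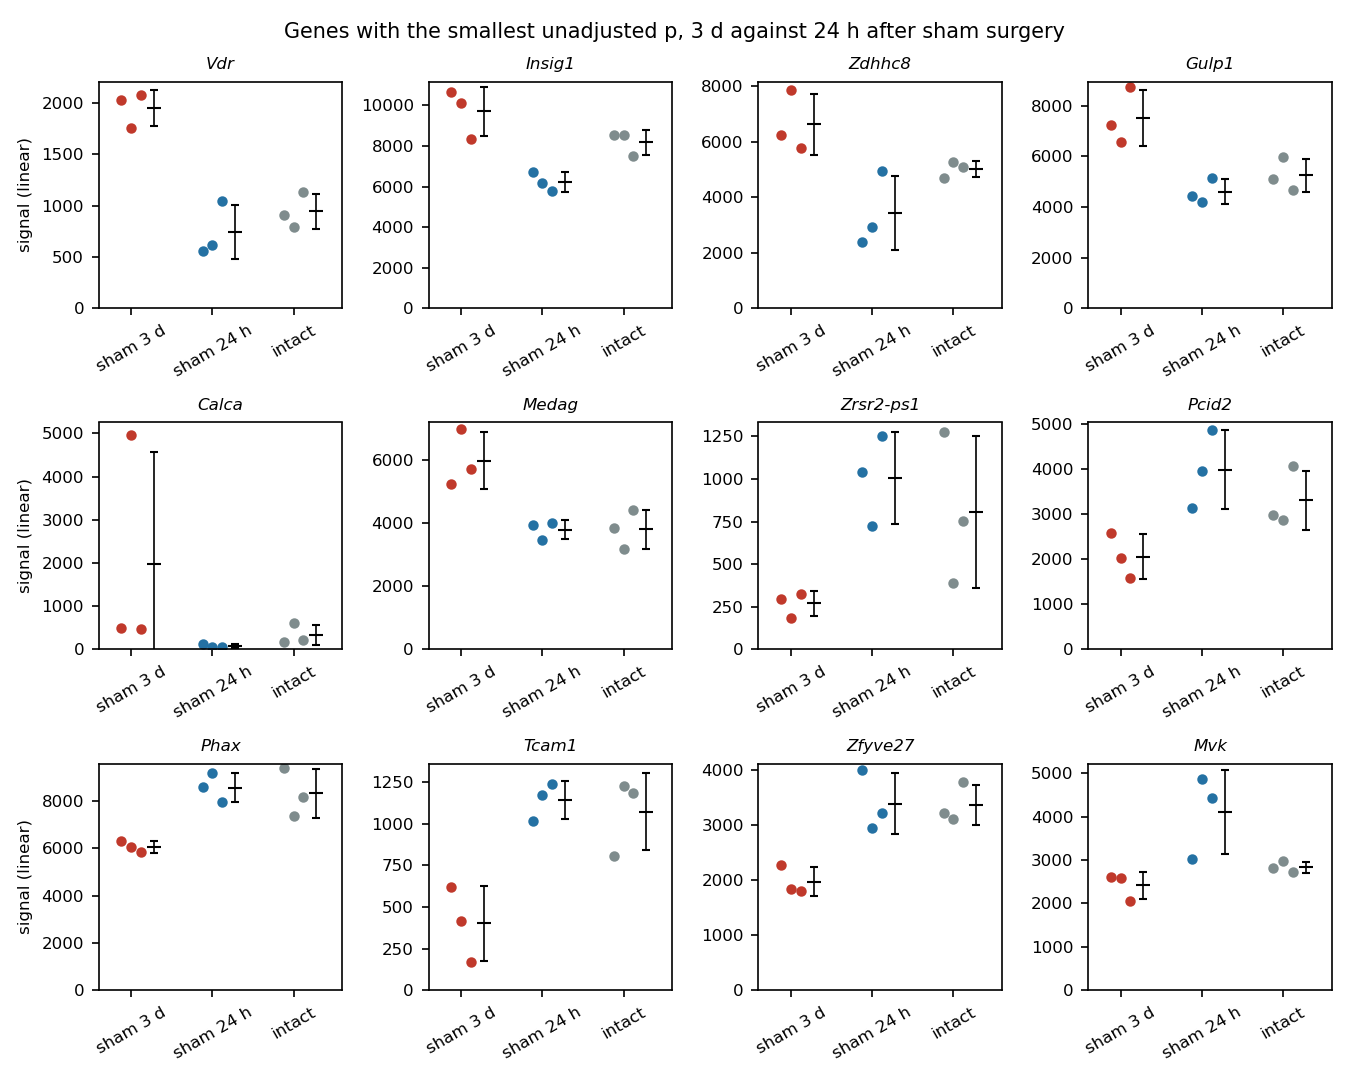
Signal (linear scale, arbitrary units) on each array 3 d after sham surgery (red), 24 h after sham surgery (blue) and in intact arteries (grey) for 6 higher and 6 lower genes, with bars for the mean and SD of 3 arrays. The 3 d and 24 h points do not overlap in any panel, since the genes were chosen so, and a single 3 d point at 4975 sets the mean for Calca.

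Among the lower genes, the brightest were Slfn5 and Ndufb2. Slfn5, a member of the Schlafen family that interferons induce, had signals of 13370, 14470 and 16140 at 3 d, against 21780, 22170 and 24010 at 24 h and 8413, 11800 and 15850 in intact arteries. The 24 h arrays were the highest of the 9, and the 3 d arrays lay between them and the intact arrays or within the intact range. The log2 difference between 3 d and 24 h was -0.63 ± 0.19 (SE, n = 3 each, limma adjusted p = 0.867). Ndufb2, an accessory subunit of respiratory complex I, had 16420, 16540 and 18830 at 3 d and 23070, 23630 and 22450 at 24 h, a difference of -0.42. After 3VO the same pair of times differed by -0.46 for Ndufb2 and by 0.01 for Slfn5.

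Phax, which adapts small nuclear RNAs for export from the nucleus, had 6333, 6053 and 5830 at 3 d and 8585, 9175 and 7965 at 24 h, a log2 difference of -0.50. Pcid2, a part of the messenger RNA export machinery, had 2568, 2028 and 1572 at 3 d and 3126, 3958 and 4862 at 24 h, a difference of -0.95. Both had their 3 d arrays below those of 24 h and of intact arteries. Naprt, the first enzyme in making NAD from nicotinic acid, had 7579, 6053 and 6443 at 3 d and 11520, 9522 and 10200 at 24 h, a difference of -0.64. Zfyve27, a membrane protein of neurite outgrowth, differed by -0.77, and L3mbtl2, a chromatin protein of the Polycomb type, by -0.57.

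Other lower genes were dimmer or less certain. Tcam1 averaged 402 ± 224.9 at 3 d and 1142 ± 112 at 24 h (SD, n = 3 each), a log2 difference of -1.64. Zrsr2-ps1, a pseudogene relative of a splicing factor gene, had 297, 184 and 327 at 3 d and 1040, 722 and 1255 at 24 h, and its probe set may not separate it from related genes. Qsox1, which forms disulfide bonds in secreted proteins, had 565, 398 and 1817 at 3 d and 1989, 2296 and 1971 at 24 h, a difference of -1.46, whereas a second Qsox1 probe set gave 0.12. Mvk is described with the sterol genes.

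Cells hold their cholesterol level through Insig proteins, which keep the transcription factor SREBP-2 in the endoplasmic reticulum when sterols are plentiful and release it when they are scarce. Of 25 measured genes of cholesterol synthesis and its control, 18 were higher and 7 lower at 3 d, beside 52.1% of all genes that were higher. The median log2 difference was 0.19, against 0.01 over all genes, and none of the 25 passed the test. At an unadjusted p under 0.05, 4 were higher (3.32% of all genes) and 1 was lower (1.94% of all genes). Without replicate 1 at 3 d the median was 0.12, and without replicate 3 at 3 d it was 0.29, with 18 and 21 members higher.

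Insig1 had signals of 10650, 10110 and 8322 at 3 d, against 6730, 6196 and 5759 at 24 h and 8524, 8528 and 7483 in intact arteries. Its 24 h arrays were the lowest of the 9, and the 3 d arrays lay wholly above them. The log2 difference was 0.63 ± 0.14 (SE, n = 3 each, limma adjusted p = 0.757), and after 3VO the corresponding difference was -0.04. Cyp51, which demethylates lanosterol, had 12860, 11500 and 7383 at 3 d and 5083, 7538 and 7064 at 24 h, so the groups overlapped. Its difference was 0.67, and a second probe set gave 0.64. Fdft1, the squalene synthase, had 7018, 8445 and 5804 at 3 d and 4602, 6170 and 4664 at 24 h, a difference of 0.46. Srebf2, which encodes SREBP-2, had 11930, 16260 and 17260 at 3 d and 9961, 13440 and 8478 at 24 h, a difference of 0.52. Both overlapped between the times.

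Mvk, the mevalonate kinase, was lower at 3 d on its brightest probe set, with 2601, 2586 and 2068 at 3 d and 3033, 4876 and 4427 at 24 h, a log2 difference of -0.74. On another Mvk probe set the arrays were equally separate in the opposite direction, with 2138, 1800 and 2145 at 3 d and 1221, 1439 and 630 at 24 h, a difference of 0.95. Another Mvk probe set, dim throughout, gave -0.10. The 2 brighter probe sets thus contradict each other, and Mvk has no direction here.

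**Figure D2:**
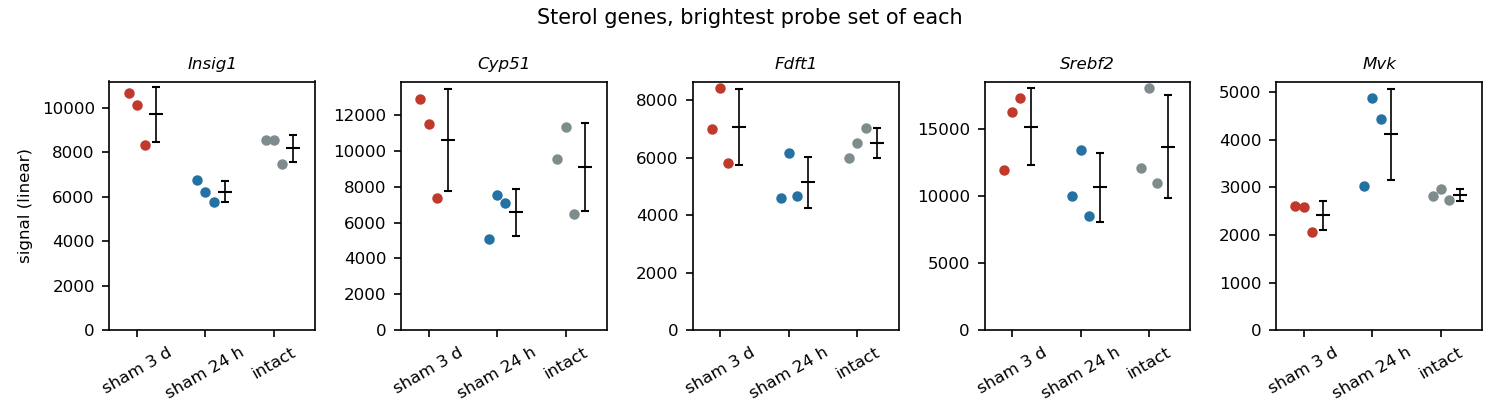
Signal (linear scale, arbitrary units) of 5 sterol genes on each array 3 d after sham surgery (red), 24 h after sham surgery (blue) and in intact arteries (grey), with bars for the mean and SD of 3 arrays. Insig1 and Mvk do not overlap between the times, in opposite directions, while Cyp51, Fdft1 and Srebf2 do overlap.

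The promoters of Insig1, Cyp51 and Mvk are shown because these genes had the smallest unadjusted p of the sterol genes. They run from 250 bases before to 50 bases after the gene start, as given by RefSeq on build GRCr8, at chr4:8057720-8058019 on the minus strand for Insig1, chr4:30991443-30991742 on the plus strand for Cyp51 and chr12:47819454-47819753 on the minus strand for Mvk. Capitals mark CCAAT on either strand (printed as ATTGG on the other strand), the box bound by the factor NF-Y, a known partner of SREBP-2.
Insig1: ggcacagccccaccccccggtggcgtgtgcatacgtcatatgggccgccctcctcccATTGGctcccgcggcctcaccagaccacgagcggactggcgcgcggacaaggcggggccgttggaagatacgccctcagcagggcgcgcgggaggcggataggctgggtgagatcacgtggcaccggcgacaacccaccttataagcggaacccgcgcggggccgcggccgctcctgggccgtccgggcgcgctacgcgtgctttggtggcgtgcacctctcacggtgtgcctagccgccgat
Cyp51: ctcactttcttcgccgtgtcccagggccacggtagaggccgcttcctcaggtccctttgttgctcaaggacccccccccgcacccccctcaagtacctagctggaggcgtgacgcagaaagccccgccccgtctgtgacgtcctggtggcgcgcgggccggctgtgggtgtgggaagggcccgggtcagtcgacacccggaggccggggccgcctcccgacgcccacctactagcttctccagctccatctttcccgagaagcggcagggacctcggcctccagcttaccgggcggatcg
Mvk: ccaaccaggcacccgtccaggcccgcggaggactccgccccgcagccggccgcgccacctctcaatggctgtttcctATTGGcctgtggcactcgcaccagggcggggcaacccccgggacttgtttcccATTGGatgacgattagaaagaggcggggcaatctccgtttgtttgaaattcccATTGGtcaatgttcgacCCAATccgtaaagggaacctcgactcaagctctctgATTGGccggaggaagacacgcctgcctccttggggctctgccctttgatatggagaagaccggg
The motif was found once in the Insig1 window, 5 times in that of Mvk and not in that of Cyp51. Of the 25 measured sterol genes 19 had a promoter in the RefSeq set, and 15 of these genes held CCAAT. It also occurred in 37.5% of 33469 promoters. That share counts promoters and not genes, and is not limited to genes measured here, so it is not a like measure. A core of the sterol element, TCACNCCAC with N for any base, was in 1.12% of all promoters on either strand and in 0 of the 19. These are matches of letters, not sites shown to be bound.

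Markers of the tissues around the artery varied between arrays. Of 16 choroid plexus markers, 13 were higher at 3 d, with a median log2 difference of 0.84. Without replicate 3 at 3 d the median was -0.09 and 6 of them were higher. Slc5a5, the sodium iodide symporter, had 6856, 6528 and 13870 at 3 d and 4055, 2984 and 4790 at 24 h. All 3 arrays at 3 d lay above those at 24 h, and the log2 difference was 1.14. Prlr, the prolactin receptor, had 2018, 2080 and 4292 at 3 d and 1157, 763 and 1913 at 24 h, a difference of 1.13. Another Prlr probe set had 520, 447 and 13950 at 3 d and 98, 465 and 1341 at 24 h, a difference of 1.85. A further one gave 0.57. Both overlapped between the times, and replicate 3 at 3 d was the highest sham array on each. Folr1, a folate receptor of the choroid plexus, had 2622, 3274 and 27580 at 3 d and 2606, 1890 and 2782 at 24 h, and the groups were alike apart from replicate 3, without which the difference was 0.29 instead of 1.37. Such non-overlap occurred in the higher direction in 6.3% of all genes and in the lower direction in 5.06%.

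Glial markers were mostly higher at 3 d as well. Of 21 astrocyte markers 16 were higher, with a median log2 difference of 0.51, and of 16 oligodendrocyte and myelin markers 15 were higher, with a median of 0.67. Gfap, the intermediate filament of astrocytes, had 113600, 77620 and 57820 at 3 d, against 59650, 64880 and 45470 at 24 h and 68580, 74070 and 77390 in intact arteries. The sham groups overlapped, the difference was 0.51 (0.26 without replicate 1 at 3 d), and the 24 h arrays were all below the intact arrays. Sox2, a transcription factor of glia and their precursors, had 1557, 1024 and 1179 at 3 d and 193, 815 and 520 at 24 h, a difference of 1.46. Slc7a10, an amino acid transporter of astrocytes, had 1676, 1416 and 2384 at 3 d and 937, 1270 and 650 at 24 h, a difference of 0.94. Fabp7, a fatty acid carrier of glia, differed by 0.63 with overlap. The other 5 astrocyte markers were lower. Among them Gjb6 differed by -0.38 and Glul by -0.22 on its brightest probe set, with -0.22 and -0.20 on its others.

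Of the myelin genes, Ugt8, which makes the galactolipids of myelin, had 6612, 6063 and 2728 at 3 d and 3610, 2850 and 1118 at 24 h, a log2 difference of 1.08. Mag, the myelin-associated glycoprotein, had 6922, 15950 and 6015 at 3 d and 5840, 5912 and 4556 at 24 h, a difference of 0.69. Mag did not overlap between the times, by a narrow margin, whereas Ugt8 did. The sums over the myelin list were 646565, 579650 and 506492 at 3 d, against 423890, 416865 and 290370 at 24 h and 409946, 523149 and 476456 in intact arteries. All 3 sums at 3 d were above those at 24 h, and the astrocyte sums overlapped, with 946858 to 1307316 at 3 d and 1024032 to 1070835 at 24 h. Leaving out any one sham array left the astrocyte median between 0.27 and 0.74 and the myelin median between 0.33 and 0.93.

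Of 36 neuron markers 28 were higher at 3 d, with a median log2 difference of 0.19. The median was 0.01 without replicate 2 at 3 d. It was 0.04, 0.50 and 0.02 without replicates 1, 2 and 3 at 24 h, and 0.31 and 0.30 without replicates 1 and 3 at 3 d. With the mean of these markers as a covariate, which by construction takes up the shift of the list itself, it was -0.04 and 17 were higher. Slc17a6, the vesicular glutamate transporter of subcortical neurons, had 4627, 6872 and 4633 at 3 d and 2838, 3034 and 2954 at 24 h, a difference of 0.84. Gad1, which makes GABA, had 13830, 6319 and 5444 at 3 d and 2132, 4814 and 2708 at 24 h, a difference of 1.36. Mapt, the protein tau, differed by 0.70 on its brightest probe set and by -0.42 and 0.53 on the others. The summed neuron signal nevertheless overlapped, with 213808 to 293509 at 3 d and 183151 to 306703 at 24 h, and was highest in intact arteries, at 315075 to 758328. Of 21 skeletal muscle markers 18 were higher at 3 d, with a median of 0.43 (0.15 to 0.61 when single arrays were left out) and overlap for each of them. How far the dissection of surrounding tissue enters the other differences was not tested.

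**Figure D3:**
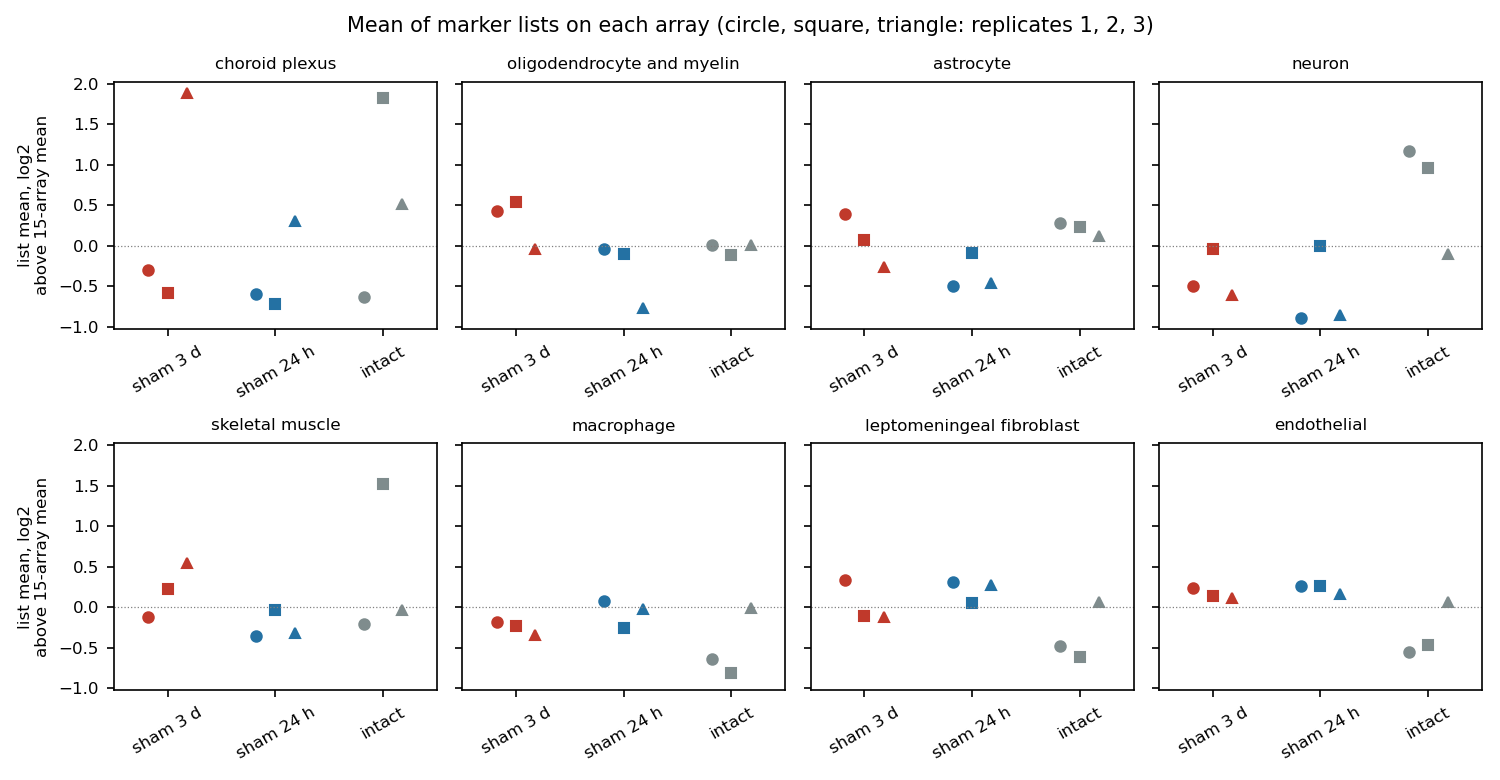
Mean over each marker list of the log2 signal minus its mean over the 15 arrays, for each array 3 d after sham surgery (red), 24 h after sham surgery (blue) and in intact arteries (grey), with circle, square and triangle for replicates 1, 2 and 3. Replicate 3 at 3 d stands at 1.89 for choroid plexus, and the endothelial values of the sham arrays lie between 0.11 and 0.26.

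Contractile genes of smooth muscle were mostly lower at 3 d. Of 33 measured genes, 29 were lower and 4 higher, with a median log2 difference of -0.20, and none passed the test. Acta2, the smooth muscle actin, had 34190, 73660 and 57510 at 3 d, against 63350, 82070 and 84640 at 24 h and 31350, 60380 and 52630 in intact arteries. The groups overlapped, replicate 1 at 3 d was the lowest sham array, and the difference was -0.53 with a 95% interval of -1.21 to 0.15. Myh11, the smooth muscle myosin heavy chain, had 70520, 116400 and 91520 at 3 d and 82430, 86810 and 108300 at 24 h, a difference of -0.01 with an interval of -0.58 to 0.55. Without replicate 1 at 3 d, the array with the conflicting treatment text, the median of the list was -0.09 and 13 of its genes were higher. Without that array the difference was -0.22 for Acta2 and 0.17 for Myh11.

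Cnn2, an actin-binding calponin, had 10980, 10520 and 9825 at 3 d and 15670, 16320 and 14100 at 24 h, a log2 difference of -0.56. Its 3 d arrays lay close together, below all 24 h arrays. Casq2, a calcium store protein, had 3438, 5384 and 5412 at 3 d and 6043, 5725 and 8183 at 24 h, a difference of -0.50, and a second probe set gave 0.16. Pln, the inhibitor of the calcium pump of the sarcoplasmic reticulum, had 15800, 31950 and 24500 at 3 d and 34610, 33330 and 36990 at 24 h, a difference of -0.60, and a second probe set gave -0.50. Pdlim7, a scaffold on actin fibres, differed by -0.35 on its brightest probe set and by 0.76 on another, with no overlap in either case. The difference without replicate 1 at 3 d was -0.28 for Casq2 and -0.32 for Pln.

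Macrophage and antigen-presentation genes were mostly lower at 3 d, by small amounts. Of 22 macrophage markers 19 were lower, with a median log2 difference of -0.22 (between -0.29 and -0.08 when single arrays were left out), and of 31 genes of the interferon response and antigen presentation 25 were lower, with a median of -0.18. Cd14, the lipopolysaccharide co-receptor, had 4230, 3522 and 2163 at 3 d and 5809, 4795 and 5363 at 24 h, a difference of -0.73. Cd68, a lysosomal protein of macrophages, had 4832, 3197 and 4529 at 3 d, against 6266, 5105 and 6465 at 24 h and 3435, 3496 and 6357 in intact arteries, a difference of -0.52 between the sham groups. Both had all 3 d arrays below all 24 h arrays, and without replicate 3 at 3 d the difference of Cd14 was -0.46. Aif1, a calcium-binding protein of microglia and macrophages, differed by -0.56 on its brightest probe set and by 0.41 on another. C1qc, a chain of complement C1q, differed by -0.40 with overlap.

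Oasl, an interferon-induced antiviral protein, had 3140, 3970 and 3137 at 3 d and 4431, 4634 and 5559 at 24 h, a log2 difference of -0.51. The class II genes RT1-Bb and RT1-DMa differed by -0.81 and -0.31 on their brightest probe sets without overlap, and a dimmer RT1-Bb probe set gave 1.10. For RT1-Bb the signals were 16560, 16430 and 6880 at 3 d and 23880, 19300 and 21810 at 24 h. Usp18, which removes the ubiquitin-like tag Isg15, differed by -0.52 with overlap. Without replicate 3 at 3 d the difference was -0.39 for RT1-Bb, -0.20 for RT1-DMa and -0.24 for Usp18. Of 25 leptomeningeal markers 22 were lower, with a median of -0.19 that lay between -0.32 and -0.09 when single arrays were left out. Among them Slc13a3, a dicarboxylate transporter, had 35550, 36890 and 30640 at 3 d and 48890, 37400 and 57240 at 24 h. In contrast, 13 of 16 lymphocyte markers were higher, with a median of 0.31 (0.13 to 0.54 when single arrays were left out). Of these, Klrd1, a receptor of natural killer cells, had 1065, 633 and 1150 at 3 d and 446, 104 and 528 at 24 h. No member of these lists passed the test.

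Genes by which the response to surgery is often read follow, and none passed the test. Of 20 measured acute phase and iron genes 13 were higher, with a median log2 difference of 0.23. The median was 0.06 after quantile normalization, 0.06 without replicate 2 at 3 d and 0.13 without replicate 3 at 24 h. A2m, a protease inhibitor that is a major acute phase protein in the rat, had 17710, 8100 and 15750 at 3 d and 9966, 7822 and 9021 at 24 h. Replicates 1 and 3 at 3 d lay above the rest and replicate 2 lay among the 24 h arrays, and the difference was 0.56 with a 95% interval of 0.07 to 1.05 and a limma adjusted p of 0.87. Without replicate 1 at 3 d, the array with the conflicting treatment text, it was 0.34. Lcn2, an iron-binding acute phase protein, had 2520, 2858 and 2138 at 3 d and 1954, 2572 and 1996 at 24 h, and intact arteries had 1660, 1397 and 1597. All 6 sham values were above the intact values, and the difference between the times was 0.20. C3, the central complement component, differed by 0.20, with an interval of -0.25 to 0.65 (0.33 without replicate 1 at 3 d).

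Timp1, a metalloproteinase inhibitor, had 15920, 17320 and 16330 at 3 d and 17940, 18180 and 16190 at 24 h, a log2 difference of -0.08. Its interval of -0.61 to 0.46 held no 2-fold difference. Col1a1 and Col3a1, the main fibrillar collagens, differed by -0.06 and -0.07, with intervals of -0.42 to 0.30 and -0.42 to 0.28. In both collagens the 6 sham arrays, 61350 to 80350 for Col1a1 and 65310 to 89490 for Col3a1, were above the intact arrays, at 33130 to 42360 and 38870 to 57380. The endothelial marker Pecam1 differed by -0.57 (-0.26 without replicate 1 at 3 d) and Vegfa, the endothelial growth factor, by 0.45 on its brightest probe set and -0.05 on another. Hbb, a globin that reports blood in the sample, differed by -0.11. The difference without replicate 1 at 3 d was -0.25 for Hbb and -0.22 for Col3a1.

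For the chemokine Ccl2, 1472, 807 and 244 at 3 d stood against 1390, 709 and 571 at 24 h, a wide spread in both groups, with a log2 difference of -0.30 and an interval of -1.58 to 0.97. The early genes Egr1 and Fos differed by 0.10 and 0.62 with overlap, and a second, dimmer Fos probe set had 2346, 1583 and 1041 at 3 d and 255, 295 and 311 at 24 h, a difference of 2.39. Fkbp5, which glucocorticoids induce, differed by 0.16, with an interval of -0.29 to 0.62. The clock genes Per1 and Dbp differed by -0.47 and 0.22, and their values scattered, with Per1 at 805, 4046 and 1037 at 3 d and 2492, 1093 and 3343 at 24 h. Mki67, a marker of dividing cells, differed by 0.01 and the heme oxygenase Hmox1 by -0.13, with intervals of more than 1 to either side, so these were not resolved. Without replicate 1 at 3 d the difference was -0.87 for Ccl2, 0.11 for the brightest Fos probe set, -0.03 for Egr1, -0.03 for Per1, 0.50 for Dbp, -0.36 for Mki67 and -0.30 for Hmox1. Without replicate 3 at 3 d it was 0.39 for Ccl2 and 0.47 for Mki67.

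**Figure D4:**
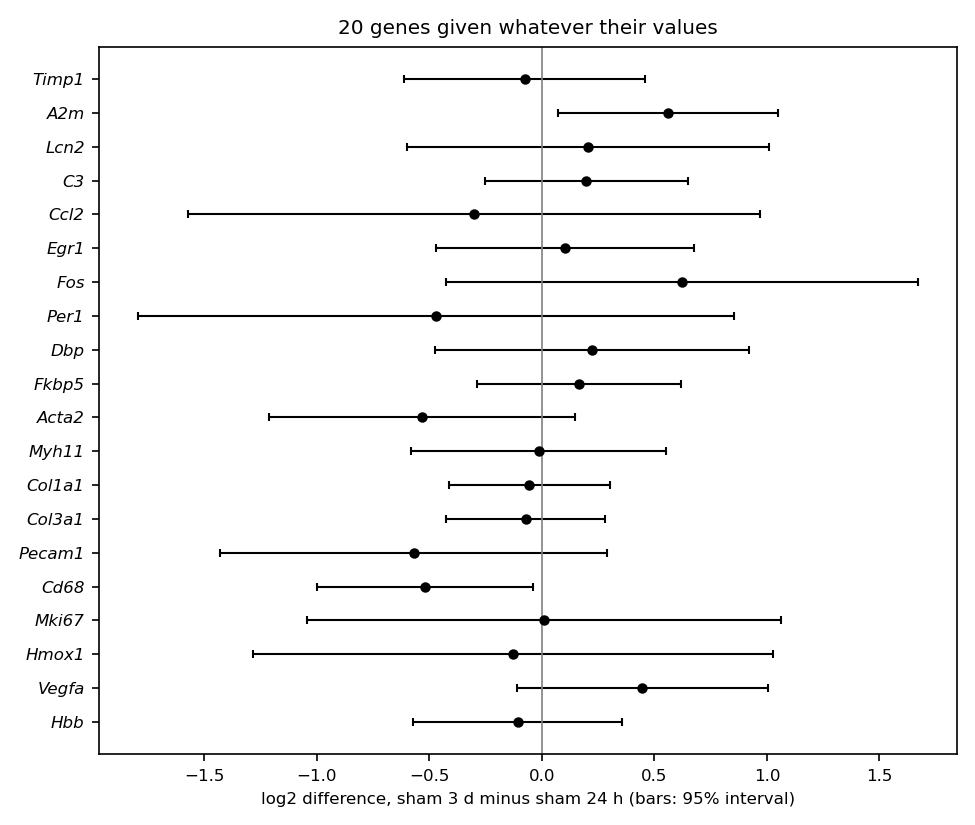
Log2 difference between 3 d and 24 h after sham surgery with its 95% interval (limma, 3 arrays each) for 20 genes given whatever their values. The intervals of 18 genes include 0, and those of A2m (0.07 to 1.05) and Cd68 (-1.0005 to -0.04) do not, before any adjustment for the number of genes tested.

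Medians of the other lists follow. The medians were 0.05 for 27 glucocorticoid response genes, 0.04 for 17 clock genes, 0.01 for 36 cell cycle genes, 0.03 for 18 basement membrane genes, -0.01 for 43 respiratory chain genes and 0.02 for 31 genes of hypoxia and glycolysis. For 36 immediate early genes the median was -0.05, for 30 chemokines, cytokines and adhesion genes -0.03, and for 48 collagens and matrix genes -0.11. In that last list Col11a1, a minor fibrillar collagen, had the smallest p, in the opposite direction, with dim signals of 276, 418 and 432 at 3 d and 113, 19 and 12 at 24 h, a difference of 2.94, and a second probe set gave 2.11. Fosb, an early gene, had 598, 461 and 1215 at 3 d and 409, 169 and 67 at 24 h, a difference of 1.93. Among vascular tone genes, the adrenoceptor gene Adra2a had 268, 571 and 256 at 3 d and 970, 957 and 677 at 24 h, a difference of -1.29, and the angiotensin receptor gene Agtr1b had 554, 506 and 1107 at 3 d and 402, 55 and 271 at 24 h, a difference of 1.76. Each of these 4, named for small p in their lists, had no overlap between the times. Over all genes, 6.3% had no overlap in the higher direction and 5.06% in the lower direction. The median was -0.08 for 26 endothelial markers, 0.02 for 7 erythroid markers, 0.11 for 17 genes of IL-6 and STAT3 signalling and -0.06 for 13 pericyte markers. The 35 measured genes of ribosome and translation had a median of -0.10, with 28 lower and 7 higher, and -0.0055 with 15 higher without replicate 3 at 3 d. Growth factors and receptors, vascular tone genes, proteases and their inhibitors, chaperones and complement had medians between -0.09 and 0.07. The small marker lists of neutrophils (10 measured), mast cells (9), platelets (5) and adipocytes (12) had medians of 0.11, 0.14, -0.11 and 0.36. Leaving out single arrays moved these medians over -0.52 to 0.47 for neutrophils, 0.06 to 0.36 for mast cells, -0.37 to 0.45 for platelets and 0.28 to 0.46 for adipocytes, with the neutrophil minimum and the platelet maximum without replicate 2 at 3 d. The neutrophil and platelet medians thus turned sign. The list of pituitary and hypothalamus (18) had a median of -0.16, which was 0.12 without replicate 2 at 3 d and 0.06 without replicate 1 at 24 h. No member of any list passed the test.

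**Figure D5:**
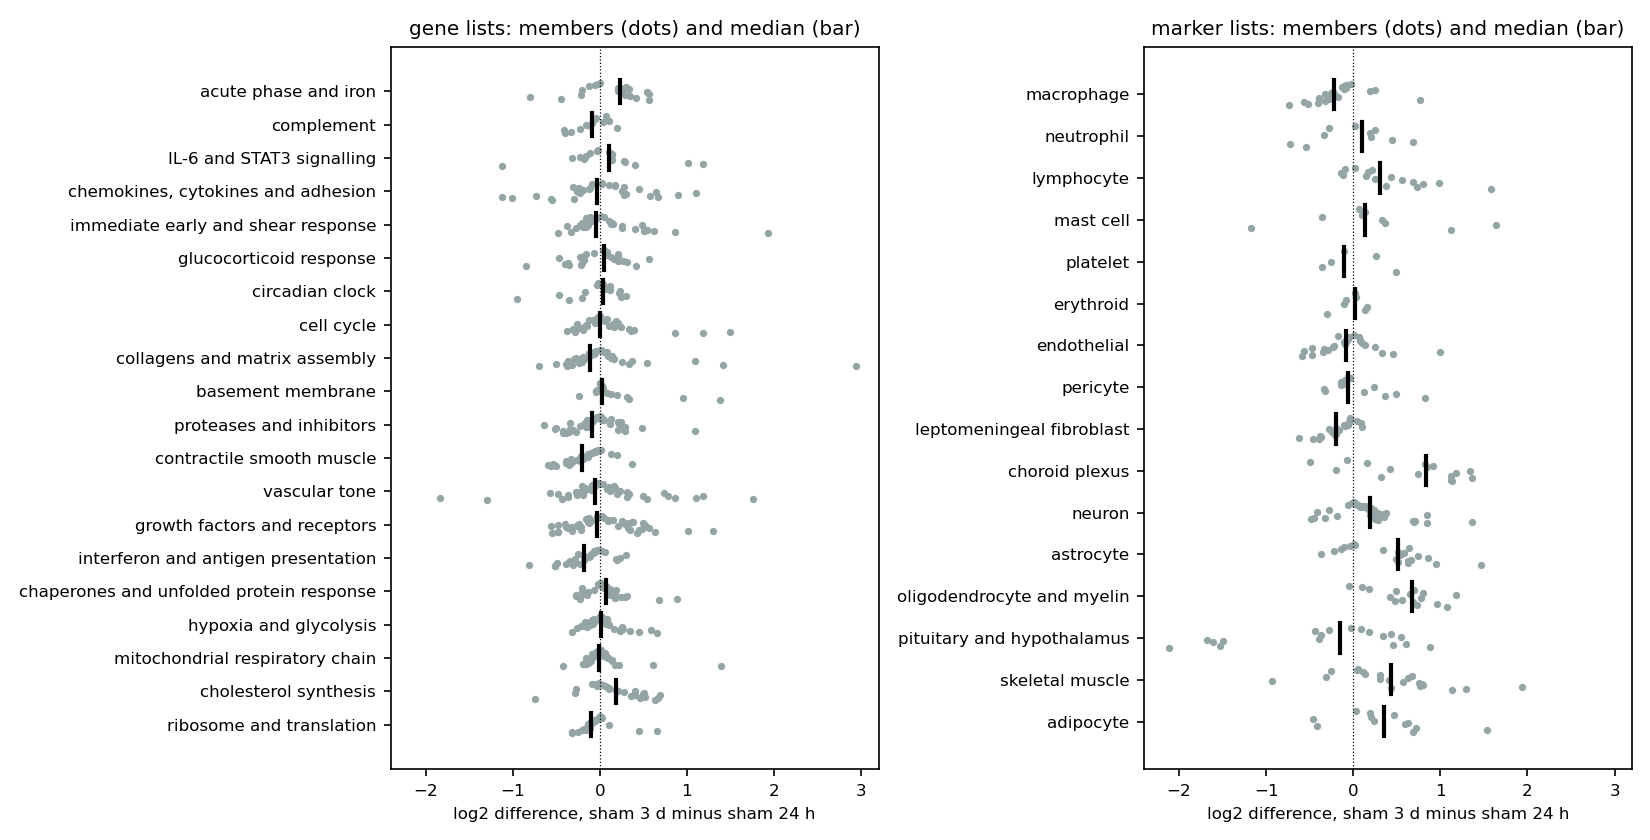
Log2 difference between 3 d and 24 h after sham surgery for the measured members (dots) and the median (bar) of each gene list on the left and each marker list on the right. The medians of the gene lists lie between -0.20 and 0.23, and choroid plexus, oligodendrocyte and astrocyte markers have the highest medians, at 0.84, 0.67 and 0.51.

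The 3VO arrays allow a test of whether the arteries differed between the same times in another way after the occlusion. For the difference between the time changes, sham minus 3VO, 0 of 15737 probe sets, or 0%, passed, with a smallest limma adjusted p of 0.704, and 438 (2.78%) had an unadjusted p under 0.05. Between 3 d and 24 h after 3VO itself, 0 passed as well and 907 had an unadjusted p under 0.05. C3 had the smallest unadjusted p. It had 6398, 8348 and 8675 at 3 d and 7702, 5036 and 7914 at 24 h after sham surgery, and 7835, 5647 and 6569 at 3 d and 19480, 22160 and 14770 at 24 h after 3VO. Only the 24 h arrays after 3VO stood out, and the time change was 0.20 after sham surgery and -1.48 after 3VO, a difference of 1.68 ± 0.30 (SE, limma adjusted p = 0.704).

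Ccdc66, a protein of the primary cilium, had 2605, 2722 and 2762 at 3 d and 3083, 3943 and 3221 at 24 h after sham surgery, against 3569, 3833 and 3895 at 3 d and 1423, 1598 and 1483 at 24 h after 3VO. The time changes were -0.33 and 1.32, a difference of -1.65 (limma adjusted p = 0.704). Nos2, the inducible nitric oxide synthase, had 288, 352 and 434 at 3 d and 314, 2047 and 3352 at 24 h after sham surgery, against 4333, 804 and 4046 at 3 d and 234, 275 and 172 at 24 h after 3VO. Its time changes were -1.84 and 3.35, a difference of -5.19 (limma adjusted p = 0.999). Replicate 1 at 24 h after sham surgery was at the level of the 3 d sham arrays, so the sham groups overlapped. Calca, Psmc5 (a proteasome subunit) and Mrgprf (an orphan receptor) completed the 3 genes per direction with the smallest p, with differences of 4.70, 0.79 and -1.43. None of these differences passed the test, so no gene was shown to differ between the surgeries in its change with time.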

How the data were processed

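RNA of pooled rat posterior cerebral arteries was measured on 15 Affymetrix Rat230A arrays, 5 groups of 3. Per the series' design text, the authors computed the deposited values, a linear signal intensity per probe set, with GCOS and set each array to a global intensity of 500. GCOS is named there with a version not given in the sources used here. With 2% of values trimmed from both ends, each array had a mean of 5000, so the deposited values lie above the stated target, and the signal minimum is looser than it would be at that target. No 2 arrays held identical values.

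No further normalization was applied. Values entered the fit as log2(signal + 16), which understates differences of dim probe sets. A probe set was tested where at least 3 of the 15 arrays reached a signal of 100, which kept 15737 of 15923, with the 57 controls excluded. Genes were named from the platform annotation and RefSeq: 12792 probe sets had 1 gene, 303 several and 2771 none. Groups were taken from the source label. limma 3.58.1 in R 4.3.3 fitted 5 group means to all 15 arrays (lmFit, then eBayes with a variance trend, 10 residual and 4.83 prior degrees of freedom). The contrasts were 3 d minus 24 h after sham surgery, and that minus the same contrast after 3VO, with 2-sided tests and Benjamini-Hochberg adjustment over all probe sets tested. The fit was first run on simulated data with planted differences and normal noise independent between arrays, and the outcome is not reported here.

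Named genes were the 12 higher and 12 lower with the smallest p as described in the text, 3 per direction for the difference between the surgeries, up to 4 per list by p, and 20 genes given whatever their values. Not all genes under this rule are reported here. A gene in a list is represented by its brightest probe set. The members and lists were chosen with earlier results of these data known. Alternatives were other pseudocounts, signal minimums, normalizations, variance and sample choices, and leaving out each array, and after seeing the data the mean of the choroid plexus or neuron markers as a covariate. The 3 arrays per group limit the precision.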

Additional observations from a re-analysis of the deposited data

How the results depend on the processing

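With 3 arrays per group, the median 95% interval reached about 0.58 to either side on the log2 scale, before adjustment for the number of tests. Larger differences, such as that of Vdr at 1.43, also did not pass the adjusted test. For sham surgery at 3 d minus 24 h, 0 probe sets passed (limma) in each setting but the omission of replicate 2 at 3 d, where 1 passed, so the counts without single arrays ran over 0 to 1. The number with an unadjusted p under 0.05 ran over 622 to 1142 when single arrays were left out and 558 to 1053 in the other settings, of which the lowest tested only the brightest probe set of each gene. It split into 595 higher and 294 lower with the deposited scaling, 413 and 414 after quantile normalization and 421 and 500 after median centring. For the difference between the surgeries, 0 passed in every setting run. For the 24 genes with the smallest p the lowest adjusted p in any setting was 0.223. Of the 20 genes given whatever their values, 10 turned sign at least once. Quantile normalization gave Myh11 0.056, Col1a1 0.035, Col3a1 0.0091, Mki67 -0.36 and the platelet gene Gp5 -0.053. Median centring gave Mki67 -0.074, and array weights gave Myh11 0.019. With the choroid plexus mean as a covariate Timp1 was 0.0094, and with the neuron mean Myh11 was 0.048 and Hmox1 0.086. Leaving out single arrays gave C3 -0.013 to 0.33, Ccl2 -0.87 to 0.39, Egr1 -0.028 to 0.29, Dbp -0.11 to 0.50, Myh11 -0.19 to 0.17, Col1a1 -0.17 to 0.028, Col3a1 -0.22 to 0.0045, Mki67 -0.38 to 0.47 and Hmox1 -0.30 to 0.048. Among list members it gave Nr1d1 -0.030 to 0.42, Cxcr2 -0.11 to 1.26, Pf4 -0.67 to 0.070, Gp5 -0.049 to 0.75, Hba-a3 -0.10 to 0.30 and Slc4a1 -0.15 to 0.45. The cause of these turns was not tested. No paired analysis was possible because the labels give the arrays no replicate numbers or shared animals across the groups.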

Other observations

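Among the sham arrays, single ones held high values of a few genes. They were picked after the values were seen. Hdc, which makes histamine, had a signal of 17390 on replicate 1 at 3 d after sham surgery, 1054 and 1142 on the other 3 d arrays and 620 to 1112 at 24 h. That replicate is the array with the conflicting treatment text. The summed mast cell markers gave 23680 on it, of which Hdc alone made up 17390. The sums were 33178 and 25160 on replicate 1 of 3VO at 3 d and at 24 h, and 6027 to 12336 on the rest. The sample titles number these arrays with high sums 3, 2 and 1, in the order given. The mean log2 signal of the mast cell list, relative to its mean over all arrays, was -0.051 on replicate 1 at 3 d after sham surgery. It was 0.29 and 0.252 on the other 3 d sham arrays and -0.229 to 0.131 on the 24 h sham arrays. On replicate 1 of 3VO at 3 d and at 24 h it was 0.618 and 0.665. The list as a whole was thus not high on the sham array with the conflicting text. Avp, the hypothalamic hormone vasopressin, had 1698, 996 and 905 at 3 d and 46150, 646 and 1689 at 24 h. Gh1, the pituitary growth hormone, had 644, 1581 and 726 at 3 d and 2360, 10120 and 2616 at 24 h. Its highest value was on replicate 2 at 24 h, but all 24 h arrays lay above all 3 d arrays. The log2 difference was -2.11 (-2.51 to -1.44 when single arrays were left out) and did not pass the test (limma adjusted p = 0.867).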
